A study of Homo sapiens with 6 samples.

Results

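Open chromatin of MCF10A cells kept without added reagent (control) or exposed to 50 μM TPA for 30 min was compared. The cell line, MCF10A, comes from human breast epithelium, does not form tumours and is labelled as WT in genotype. TPA, tris(2-pyridylmethyl)amine, is a cell-permeable chelator that lowers free Zn2+. All cells, control included, had first spent 30 min in phosphate-free buffered salt solution, so both conditions share that change of medium. There were 2 libraries per condition, 4 in the comparison out of 6 in the series. The other libraries were treated with 30 μM ZnCl2 and did not enter the comparison. Regions from the 4 lists of open chromatin on chromosomes 1 to 22 and X that overlapped or touched were joined into 47700 merged regions, of which 22568 were called in all 4 lists and are named shared regions below. Merging all 6 lists of the series gave 49519 regions. For each shared region the calls, their width and the percentile of the caller's score were compared. A percentile is the position of a region's score among all scores of its own list, from 0 for the lowest to 100 for the highest.

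ATAC-seq reads accessible chromatin through the cuts that Tn5 transposase makes in DNA not covered by nucleosomes. Open regions lie mainly at promoters, many of which are rich in G and C, and at distal regulatory elements, which in epithelial cells often carry AP-1 sites. Zinc is a structural part of the zinc finger, the DNA-binding fold of the KLF and SP factors, of CTCF and of many other transcription factors. Free zinc is buffered by metallothioneins, small cysteine-rich proteins that bind metal, exported from the cytosol by the SLC30A family and imported by the SLC39A family. MTF1 is the factor that senses zinc, and it binds metal response elements in metallothionein promoters.

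The lists held 25025 and 44637 regions in the control and 35900 and 41374 with TPA, and 52.6% to 94.8% of a list lay in shared regions. Control replicate 1 had the shortest list, and the lengths of the other lists also differed. The score was a whole number with a lowest value of 30 in every list, and neither its kind nor the number of reads behind it was given, so depth is unknown and no fold change in reads could be computed. The sources do not settle whether the replicates are separate cultures, so p-values measure only the spread between these samples, which may be technical. A longer list holds more weak regions and lifts the percentile of a shared region: the median percentile of the shared regions was 53.5 and 73.0 in the control against 66.5 and 70.6 with TPA. Percentiles were therefore also computed after ranking only the 22568 shared regions, and such values are named re-ranked. The order of the scores was closer between replicates than between conditions: Spearman's correlation over the shared regions was 0.863 for the controls and 0.886 for TPA, and 0.748 to 0.783 for the cross pairs (a description, since regions share their libraries). Of the basal mammary markers, 6 of 9 genes had a shared region over the promoter, among them KRT5, KRT17, EGFR and ITGB4. TP63 had no call over its promoter in any list. Promoters were read only at the outermost annotated start of a gene, so a missing call does not cover starts further inside the gene. Of the 9 luminal markers 3 had a shared region over the promoter, and the others, among them ESR1, PGR and GATA3, had no promoter call in any list. Of 8 immune, 5 endothelial and 5 neuronal markers only CD14 had a shared promoter region, and of 6 fibroblast markers only COL1A1 did.

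The sequences of promoters and distal regions that carry the main results are shown first, 200 bases each, 5′ to 3′, from hg38. The 4 metallothionein promoters with a shared region are shown because metallothioneins are known as targets of MTF1, and the bases directly before each gene start are given on the plus strand, with matches to the metal response element (TGCACNC or TGCGCNC, either strand) in capitals. They are MT2A at chr16:56608384-56608583, MT1E at chr16:56625275-56625474, MT1F at chr16:56657531-56657730 and MT1X at chr16:56682270-56682469.
MT2A: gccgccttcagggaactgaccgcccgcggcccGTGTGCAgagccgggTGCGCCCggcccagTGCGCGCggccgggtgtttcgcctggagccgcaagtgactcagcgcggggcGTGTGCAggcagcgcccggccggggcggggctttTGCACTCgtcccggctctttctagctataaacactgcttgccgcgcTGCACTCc
MT1E: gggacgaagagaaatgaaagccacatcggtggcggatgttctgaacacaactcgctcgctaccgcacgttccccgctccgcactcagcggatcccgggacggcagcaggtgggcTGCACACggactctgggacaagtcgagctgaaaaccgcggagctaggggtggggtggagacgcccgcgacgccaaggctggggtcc
MT1F: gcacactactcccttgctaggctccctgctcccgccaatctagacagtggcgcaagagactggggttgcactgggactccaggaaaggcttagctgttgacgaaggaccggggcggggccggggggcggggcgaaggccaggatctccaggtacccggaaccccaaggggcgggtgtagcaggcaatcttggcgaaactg
MT1X: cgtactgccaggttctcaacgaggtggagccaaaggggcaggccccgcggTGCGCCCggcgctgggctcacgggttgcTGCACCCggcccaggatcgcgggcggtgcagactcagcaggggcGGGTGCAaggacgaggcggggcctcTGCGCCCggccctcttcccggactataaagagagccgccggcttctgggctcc
The MT2A window held 6 matches, that of MT1X 4, that of MT1E 1 and that of MT1F 0, where 23.9% of the 19188 windows of this length before coding gene starts held at least 1. Matches may overlap each other. The gene start is the outermost one annotated, so sites before a start further inside the gene may fall outside the window. A count of 0 describes this window alone.

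Next are the 4 coding promoters with the largest drop in percentile and that of KLF3, which dropped most among the KLF and SP genes, followed by the promoters of LAPTM5 and TBPL1, where the percentile was highest above the control. Capitals mark GC boxes (GGGCGG, either strand), the sites that SP and KLF factors bind. The windows before the gene starts are RAVER2 at chr1:64744875-64745074 (plus strand), EMP2 at chr16:10580633-10580832 (minus), INSR at chr19:7294415-7294614 (minus), WDFY3 at chr4:84966691-84966890 (minus), KLF3 at chr4:38663997-38664196 (plus), LAPTM5 at chr1:30757775-30757974 (minus) and TBPL1 at chr6:133951970-133952169 (plus).
RAVER2: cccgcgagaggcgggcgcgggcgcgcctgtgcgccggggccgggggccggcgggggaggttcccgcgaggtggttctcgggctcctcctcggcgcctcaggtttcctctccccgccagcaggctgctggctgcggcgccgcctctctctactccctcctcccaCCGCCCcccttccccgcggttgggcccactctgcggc
EMP2: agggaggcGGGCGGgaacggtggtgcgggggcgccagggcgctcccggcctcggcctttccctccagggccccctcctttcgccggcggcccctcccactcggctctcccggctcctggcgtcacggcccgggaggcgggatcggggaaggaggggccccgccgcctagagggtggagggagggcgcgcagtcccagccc
INSR: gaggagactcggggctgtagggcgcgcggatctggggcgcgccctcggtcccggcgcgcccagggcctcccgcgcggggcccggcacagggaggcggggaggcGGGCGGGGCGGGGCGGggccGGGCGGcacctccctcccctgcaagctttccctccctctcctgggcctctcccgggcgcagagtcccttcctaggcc
WDFY3: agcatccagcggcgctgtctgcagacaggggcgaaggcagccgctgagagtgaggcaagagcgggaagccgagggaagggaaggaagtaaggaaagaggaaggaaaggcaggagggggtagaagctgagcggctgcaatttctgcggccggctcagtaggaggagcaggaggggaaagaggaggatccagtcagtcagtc
KLF3: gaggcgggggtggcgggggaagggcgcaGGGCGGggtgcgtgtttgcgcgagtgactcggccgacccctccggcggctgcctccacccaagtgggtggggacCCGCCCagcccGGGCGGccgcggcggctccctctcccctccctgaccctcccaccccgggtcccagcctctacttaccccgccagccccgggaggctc
LAPTM5: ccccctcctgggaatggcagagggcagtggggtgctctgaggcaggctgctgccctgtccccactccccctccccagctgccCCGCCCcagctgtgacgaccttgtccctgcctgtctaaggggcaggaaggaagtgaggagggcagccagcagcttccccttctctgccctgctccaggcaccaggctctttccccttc
TBPL1: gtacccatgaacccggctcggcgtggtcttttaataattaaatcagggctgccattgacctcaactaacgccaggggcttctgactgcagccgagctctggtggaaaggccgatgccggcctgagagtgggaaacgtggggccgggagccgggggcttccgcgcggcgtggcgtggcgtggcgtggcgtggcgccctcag
The INSR window held 4 GC boxes, that of KLF3 3 and those of RAVER2, EMP2 and LAPTM5 1 each, and the windows of WDFY3 and TBPL1 held none. Of the windows before all coding gene starts 47.1% held at least 1, and of the 9353 with a shared promoter region 61.9% did.

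Last are the 4 regions outside exons and promoters with the largest gain in percentile, as the 200 bases around the middle of the calls on the plus strand, with AP-1 sites (TGANTCA, either strand) in capitals. They are named by the gene with the nearest start or the gene they lie in: INSIG1 at chr7:155291166-155291365, TGM2 at chr20:38168766-38168965, INO80C at chr18:35458791-35458990 and ARHGAP26 at chr5:142827022-142827221.
INSIG1: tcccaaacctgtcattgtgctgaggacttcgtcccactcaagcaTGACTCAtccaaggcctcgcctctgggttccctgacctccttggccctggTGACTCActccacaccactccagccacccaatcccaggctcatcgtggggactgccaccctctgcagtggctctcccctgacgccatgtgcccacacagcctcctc
TGM2: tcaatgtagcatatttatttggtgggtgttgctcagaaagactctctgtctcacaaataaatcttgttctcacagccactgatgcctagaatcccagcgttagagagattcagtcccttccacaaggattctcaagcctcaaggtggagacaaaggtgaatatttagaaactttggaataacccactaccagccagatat
INO80C: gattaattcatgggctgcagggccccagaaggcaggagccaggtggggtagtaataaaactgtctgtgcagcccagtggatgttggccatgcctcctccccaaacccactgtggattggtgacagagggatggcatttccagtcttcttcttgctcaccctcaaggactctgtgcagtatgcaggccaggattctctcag
ARHGAP26: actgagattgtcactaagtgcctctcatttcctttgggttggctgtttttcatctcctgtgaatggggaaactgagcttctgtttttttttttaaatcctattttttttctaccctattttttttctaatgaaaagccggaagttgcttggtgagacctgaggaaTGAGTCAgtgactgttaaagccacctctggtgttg
The INSIG1 window held 2 AP-1 sites and that of ARHGAP26 1, while those of TGM2 and INO80C held none. At the middle of the calls, 34.2% of the 13810 distal shared regions held a site, against 2.92% of the windows before the coding starts with a shared promoter region. A match describes the letters and not a bound factor.

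The first question was which shared regions ranked differently with TPA. Both TPA lists placed a region above both control lists, in the percentile and in the re-ranked percentile, for 4424 of 22568 shared regions (19.6%), and below both for 2677 (11.9%). These counts depend on the ranking: by the re-ranked percentile alone 6003 were higher and 5480 lower, and with lists of equal length 5171 and 4022 of 18162. Regions placed higher were mostly distal: 20.5% of them overlapped a promoter, the 1000 bp before a gene start, while 68.7% of those placed lower did, against 38.8% of all shared regions. No shared region passed at an adjusted p of 0.05 in limma on the percentile as a normal score (0 higher, 0%, and 0 lower, 0%; 720 and 639 at an unadjusted p of 0.05). With the log2 score after quantile normalization, an alternative that sets the lists to 1 distribution, limma called 345 regions higher (1.53%) and 840 lower (3.72%) at an adjusted p of 0.05. The word called below refers to this fit. It rests on all 4 libraries, since leaving out any 1 of them gave 0 calls in both directions, with 1002 to 1537 regions higher and 1480 to 1760 lower at an unadjusted p of 0.05. Of the regions called lower 73.2% overlapped a promoter, and of those called higher 14.8% did. The median GC content was 56.9% in the first and 47.2% in the second set, against 49.8% over all shared regions. When each library was first levelled over bins of GC content, 327 were called higher and 535 lower, of which 199 and 473 were among the first calls.

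Promoters ranked above distal regions in every library, and the distance was smaller with TPA. In the control the median percentile of promoter regions was 70.0 and 83.9 and that of distal regions 41.2 and 66.1. With TPA promoters had 73.7 and 77.8 and distal regions 62.8 and 67.5. The distance was thus 28.7 and 17.8 points in the control and 10.97 and 10.3 with TPA, and the conditions did not overlap. Its mean was 23.3 ± 7.71 (SD, n = 2) in the control and 10.6 ± 0.478 (SD, n = 2) with TPA, -12.6 points apart. A two-sided exact permutation test over the libraries gave p = 0.333, which is as low as 2 libraries against 2 can reach. Re-ranked, the distances were 29.8 and 32.6 in the control against 15.8 and 17.2 with TPA, -14.7 points apart (p = 0.333 in the same exact test). The re-ranked control values lay closer together than those from the whole lists.

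**Figure D1:**
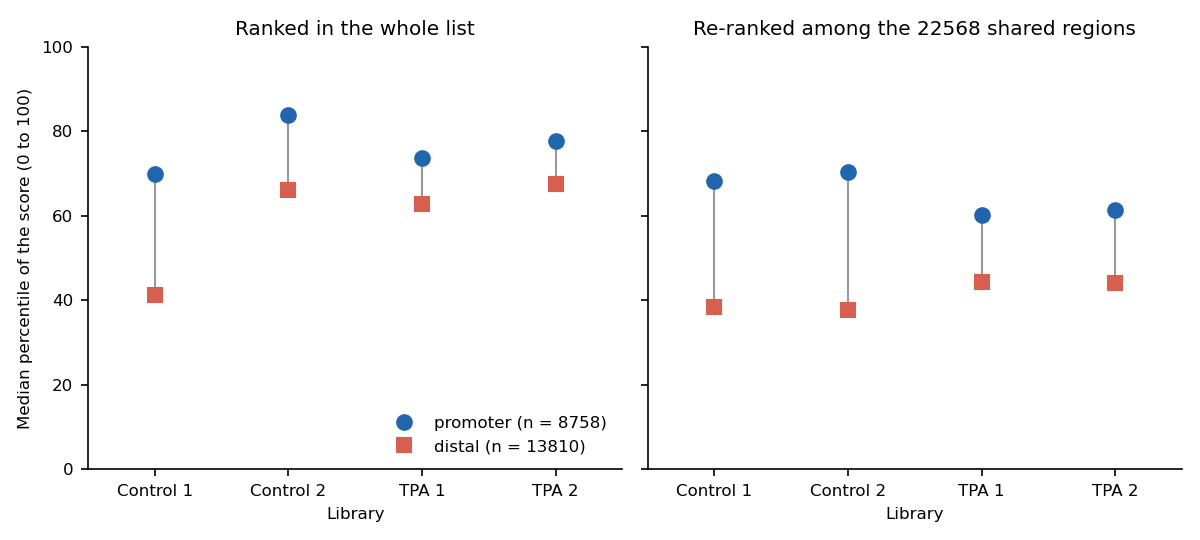
Median percentile of the score (0 to 100, vertical axis) of promoter and distal shared regions in each library (horizontal axis), ranked in the whole list (left) or among shared regions (right). The line joins the medians of a library; re-ranked, the distance is 29.8 and 32.6 points in the controls and 15.8 and 17.2 with TPA.

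The same contrast appeared along GC content. With the shared regions split into 4 equal classes of GC content, the GC-richest class (above 55.2% GC) ranked 27.9 and 15.3 points above the GC-poorest class (below 44.1%) in the control, and 7.51 and 3.12 points above it with TPA. The mean distance was 21.6 ± 8.91 (SD, n = 2) in the control and 5.32 ± 3.10 (SD, n = 2) with TPA, -16.3 points apart (p = 0.333 in the same exact test), or -20.2 when re-ranked. From the GC-poorest to the GC-richest class the median re-ranked difference of a region, TPA minus control, went from 6.43 over 3.33 and -0.79 to -5.64 points. Within each class promoters still lay below distal regions. The difference between conditions in the re-ranked promoter-distal distance, -14.7 over all shared regions, was -11.4, -10.5, -9.06 and -7.61 points from the GC-poorest to the GC-richest class (each p = 0.333, two-sided exact permutation test, an alternative added after seeing the data). Promoter position and GC content therefore each moved with the shift. Whether base composition affected the recovery of fragments differently in the 4 libraries was not tested.

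**Figure D2:**
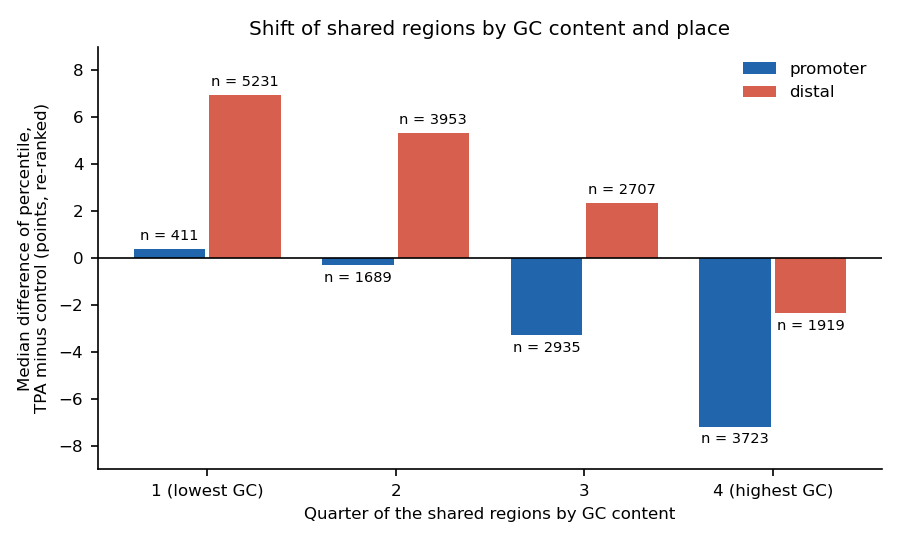
Median difference of the re-ranked percentile, TPA minus control in points (bars), for promoter and distal shared regions in 4 classes of GC content (horizontal axis), with the number of regions at each bar. Distal regions of the GC-poorest class stand at 6.97 and promoters of the GC-richest class at -7.18.

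Distance from genes gave the same order. Regions centred within 1 kb of the nearest coding start had a median re-ranked difference of -4.36 points, those at 1 to 10 kb -0.96, those at 10 to 50 kb 3.23, those at 50 to 100 kb 4.87 and those beyond 100 kb 5.86. The share placed below both controls in both lists was 21.4% in the nearest class and 3.66% in the farthest. GC content changed along the same classes, from a median of 54.2% to 43.4%, and the part of either in this order was not tested.

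The 10 regions with the largest drop in percentile are described by their values, since the drop chose them and a test on the same scores is not independent of it. Of these, 7 lay over promoters, 2 in exons and 1 outside coding genes. The largest drop was in an exon of ITGB5, the β5 subunit of a vitronectin receptor, at chr3:124885241-124889120, which overlaps coding sequence. Its percentiles were 85.9 and 79.3 in the control against 5.09 and 14.1 with TPA. The log2 difference of the score, TPA minus control, was -1.31 ± 0.17 (SE). A region in the intergenic DNA at chr1:1155377-1158756, 16814 bp from the start of TTLL10, a tubulin-modifying enzyme, had percentiles of 77.2 and 70.9 in the control against 1.69 and 1.70 with TPA. In both TPA lists it stood at the lowest score of 30, against 61 and 75 in the control. An exon of GABBR1, a subunit of the GABA-B receptor, at chr6:29631691-29633870 had percentiles of 59.8 and 82.8 in the control against 8.43 and 11.2 with TPA. Like all shared regions, these were called in every list, at a much lower rank with TPA.

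Among promoters the largest drops were at RAVER2, EMP2, INSR and WDFY3, whose sequences are given above. RAVER2 encodes an RNA-binding partner of the splicing repressor PTB, and its region at chr1:64743701-64746590 had percentiles of 68.4 and 83.2 in the control against 8.43 and 14.1 with TPA. EMP2 encodes a tetraspan membrane protein of epithelia, and its region at chr16:10575581-10581180 had 79.4 and 81.4 in the control against 17.3 and 16.8 with TPA. INSR encodes the insulin receptor, and its region at chr19:7293311-7295510 had 84.5 and 80.3 in the control against 11.6 and 26.8 with TPA. WDFY3 encodes an adaptor of selective autophagy, and its region at chr4:84964771-84967890 had 87.3 and 85.6 in the control against 5.09 and 42.9 with TPA. In each of these promoters both TPA values lay far below both controls, and the TPA replicates were farthest apart at WDFY3. The log2 difference was -1.15 ± 0.15 (SE) at RAVER2, -1.15 ± 0.16 at EMP2, -1.18 ± 0.17 at INSR and -1.25 ± 0.18 at WDFY3.

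The other promoters among the lowest were those of GPR37, an orphan receptor, EVA1B, NHSL1 and RAB43, a small GTPase of the Golgi. Their control percentiles ran from 65.3 to 94.4 and their TPA percentiles from 1.69 to 51.1. The RAB43 promoter at chr3:129119471-129123310 was among the highest ranked regions of the control, at 93.4 and 94.4, and stood at 22.6 and 51.1 with TPA, the largest drop of these promoters when re-ranked, -77.5 points. At RAB43 the calls measured 2220 and 3360 bp in the control against 2800 and 3820 bp with TPA, and at EMP2 1250 and 5600 bp against 1520 and 1570 bp. In all 10 regions with the largest drop the call of control replicate 2 was the widest of the 4. That list also had the widest median call over all shared regions, 2220 bp against 1260 to 1420 bp, so this is not particular to the dropped regions.

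**Figure D3:**
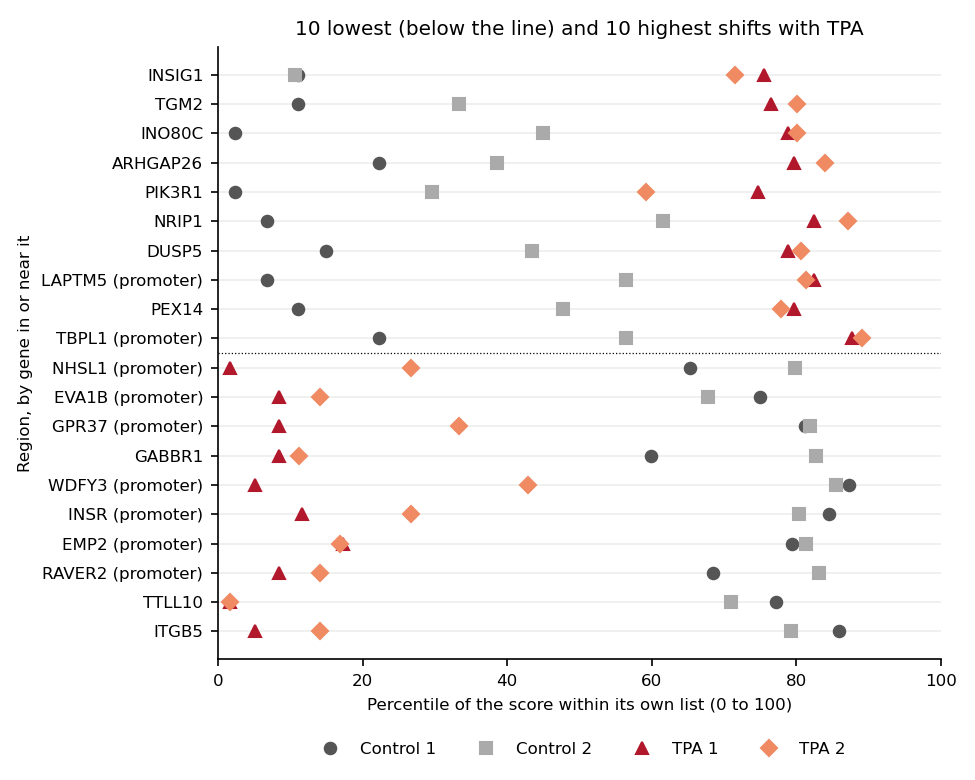
Percentile of the score within its own list (horizontal axis, 0 to 100) for the 10 regions with the highest and the 10 with the lowest difference (rows), 1 symbol per library. TPA and control symbols do not overlap in any row, which is how the rows were chosen. At INSIG1 the controls stand at 11.1 and 10.7 and TPA at 75.5 and 71.6, while at NRIP1 the controls stand at 6.84 and 61.6.

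The 10 regions with the largest gain lay mostly away from promoters, with 4 outside coding genes, 3 in introns, 1 in an exon and 2 over promoters. The largest gain was 6691 bp from the start of INSIG1, a membrane protein that restrains sterol synthesis, at chr7:155290351-155291820. Its percentiles were 11.1 and 10.7 in the control against 75.5 and 71.6 with TPA, and its log2 difference was 0.92 ± 0.17 (SE). A region 2377 bp from the start of TGM2, a protein cross-linking transglutaminase, at chr20:38167701-38170210 had 11.1 and 33.4 in the control against 76.4 and 80.0 with TPA. At INSIG1 both controls stood low. In the other 8 regions control replicate 1 stood between 2.30 and 22.3, and control replicate 2, the longest list, between 29.6 and 61.6.

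In introns, the largest gains were at INO80C, a subunit of a chromatin remodelling complex, ARHGAP26, and PEX14, a peroxisomal import factor. INO80C at chr18:35455891-35461900 had percentiles of 2.30 and 44.9 in the control against 78.8 and 80.0 with TPA. ARHGAP26 at chr5:142825742-142828831 had 22.3 and 38.7 in the control against 79.7 and 83.9 with TPA. PEX14 at chr1:10527757-10531206 had 11.1 and 47.7 in the control against 79.7 and 77.8 with TPA. In these introns the TPA libraries gave nearly the same value, whereas the control libraries differed. An exon of PIK3R1, the regulatory subunit of PI 3-kinase, outside its coding sequence at chr5:68224401-68226470, a region 144245 bp from NRIP1, a nuclear receptor corepressor, at chr21:15209412-15210951, and 1 at chr10:110413761-110415670, 83192 bp from DUSP5, an ERK phosphatase, completed the distal set, with TPA percentiles of 59.2 to 87.2.

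Promoters that gained rank were those of LAPTM5, TBPL1, SERPINA3, ARHGAP45, MRPS15, PHKB, MEF2A and the start shared by C17orf75 and ZNF207. LAPTM5, a lysosomal membrane protein best known from blood cells, had a region at chr1:30756111-30758250 with percentiles of 6.84 and 56.4 in the control against 82.5 and 81.3 with TPA. TBPL1, a relative of the TATA-binding protein, had one at chr6:133951521-133954350 with 22.3 and 56.4 in the control against 87.7 and 89.0 with TPA. SERPINA3, the protease inhibitor antichymotrypsin, had one at chr14:94610371-94611410 with 2.30 and 31.5 in the control against 60.04 and 71.6 with TPA. At TBPL1 both TPA values were among the upper ones of their lists. The other promoters are that of ARHGAP45 and those of a mitochondrial ribosomal protein (MRPS15), a subunit of phosphorylase kinase (PHKB), a myocyte enhancer factor (MEF2A) and a spindle-associated zinc-finger protein (ZNF207). Their control percentiles ran from 2.30 to 68.6 and their TPA percentiles from 46.2 to 87.2.

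Before the 10 highest and the 10 lowest regions were reached, 12 candidates and 3 candidates were passed over because a 50 bp piece of their sequence occurs elsewhere in the genome. Near-identical copies also make the basal keratin KRT17 uncertain. Its promoter region had percentiles of 2.30 and 43.5 in the control against 76.4 and 74.3 with TPA (adjusted p = 0.00681 in limma). Of the fibroblast markers, 1 of 6 had a shared promoter region, COL1A1, at 87.3 and 87.0 in the control against 47.8 and 49.5 with TPA (adjusted p = 0.00570 in limma), while COL1A2, DCN and LUM had no promoter call in any list.

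Several regions near 1 gene can move together, and 366 coding genes were the nearest to at least 5 shared regions. At TGM2 all 6 regions had a higher mean percentile with TPA, by 10.0 to 56.0 points, and 4 were placed above both controls by both TPA lists. Their median percentile per library was 18.5 and 56.2 in the control against 67.0 and 76.0 with TPA. At GADD45B, a stress-induced gene, 4 of 5 regions were placed above both controls, including the promoter at 35.7 and 43.5 in the control against 74.6 and 72.5 with TPA, and those further away lay in GNG7. Similar counts were seen at RHOBTB2 (4 of 5 regions, mostly in introns of PEBP4) and MRPS23 (4 of 6, mostly in the neighbouring gene CUEDC1). HPCAL1 also had 4 of 5, and PDCD4, a translation inhibitor, had 2 of 5. Over all shared regions 19.6% were placed above and 11.9% below, and these genes were chosen as the extremes of the 366. Their median differences were 24.6 to 29.2 points. Single calls were few, with 1 region each at TGM2, PDCD4 and HPCAL1.

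In the other direction stood HTR6, NENF, NEURL1B, IPO9, RAB4A and LMNA, with median differences of -25.1 to -5.88 points. Near HTR6, a serotonin receptor gene, 3 of 5 regions were placed below both controls and 1 above, and most lay in the neighbouring genes NBL1 and TMCO4. At NENF the promoter had percentiles of 98.5 and 99.5 in the control against 83.9 and 90.9 with TPA, and 2 of 5 regions were called lower. At LMNA, which encodes the nuclear lamins A and C, all 5 regions had a lower mean with TPA, by 5.54 to 16.1 points, but none was placed below both controls in both rankings. Except at HTR6, the median drops in this group were thus smaller than the median gains above, on a scale whose median over all shared regions was 4.30 points.

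Genes that handle zinc were read at their promoters. Of 11 metallothionein genes 4 had a shared promoter region, 1 of which was placed above and 2 below both controls, and none was called in either direction. MT1F had percentiles of 32.6 and 52.8 in the control against 14.5 and 31.2 with TPA, and MT1X had 66.9 and 75.6 in the control against 66.5 and 66.5 with TPA. MT1E had 35.7 and 70.9 in the control against 44.3 and 37.3 with TPA, which overlap, and a re-ranked difference of -23.6 points. MT2A had 71.4 and 79.8 in the control against 81.1 and 86.7 with TPA. The log2 differences, -0.39 ± 0.16 (SE) at MT1F, -0.20 ± 0.16 at MT1X and 0.13 ± 0.16 at MT2A, had adjusted p-values of 0.162 to 0.672 in limma. None passed the threshold. The median re-ranked difference of the 4 was -16.5 points, beside -4.24 over all coding promoters.

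Of the SLC30A exporters 6 of 10 had a shared promoter region and of the SLC39A importers 10 of 14, and none was called. The region counted for SLC39A5 also covers the promoters of NABP2 and RNF41. Its calls measured 35600 bp in TPA replicate 2 against 2830 to 3640 bp in the other lists, so its score may belong to another of these promoters. SLC30A1, the main exporter of the plasma membrane, stood at 99.3 and 99.5 in the control against 99.5 and 99.4 with TPA. SLC30A4, an exporter into vesicles, had 55.7 and 65.2 in the control against 42.4 and 21.99 with TPA (log2 difference -0.55 ± 0.17 SE, adjusted p = 0.0758 in limma). SLC39A8, an importer of zinc and manganese, had 32.6 and 66.1 in the control against 76.4 and 82.0 with TPA (0.46 ± 0.16 SE, adjusted p = 0.0933 in limma). These promoters had the largest differences of either sign among the transporters, and neither passed the threshold.

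KLF and SP factors, zinc-finger proteins that bind GC boxes, had shared promoter regions at 15 of 26 genes. Both TPA lists placed 8 of them below and 1 above both controls, and 3 were called lower and 0 higher. Over all 7892 coding promoters the corresponding numbers were 21.97% placed below, 9.38% above, 589 called lower and 34 higher. KLF3, a transcriptional repressor, had percentiles of 80.4 and 91.9 in the control against 32.0 and 52.5 with TPA at chr4:38662991-38666190 (log2 difference -1.02 ± 0.16 SE, adjusted p = 0.00389 in limma). KLF12, another repressor, had 83.7 and 88.9 in the control against 42.4 and 64.2 with TPA at chr13:74131981-74136640 (-0.81 ± 0.16 SE, adjusted p = 0.0105 in limma). KLF11, a TGF-β-responsive factor, had 59.8 and 68.6 in the control against 27.4 and 21.99 with TPA at chr2:10042501-10046640 (-0.72 ± 0.16 SE, adjusted p = 0.0180 in limma). These 3 were also called after levelling over GC content, with adjusted p-values of 0.0123 to 0.0467. SP1 stood at 96.3 and 96.2 in the control against 97.8 and 97.1 with TPA, and KLF9 at 73.9 and 85.2 against 89.9 and 88.2, and the re-ranked median of the 15 was -8.35 points.

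**Figure D4:**
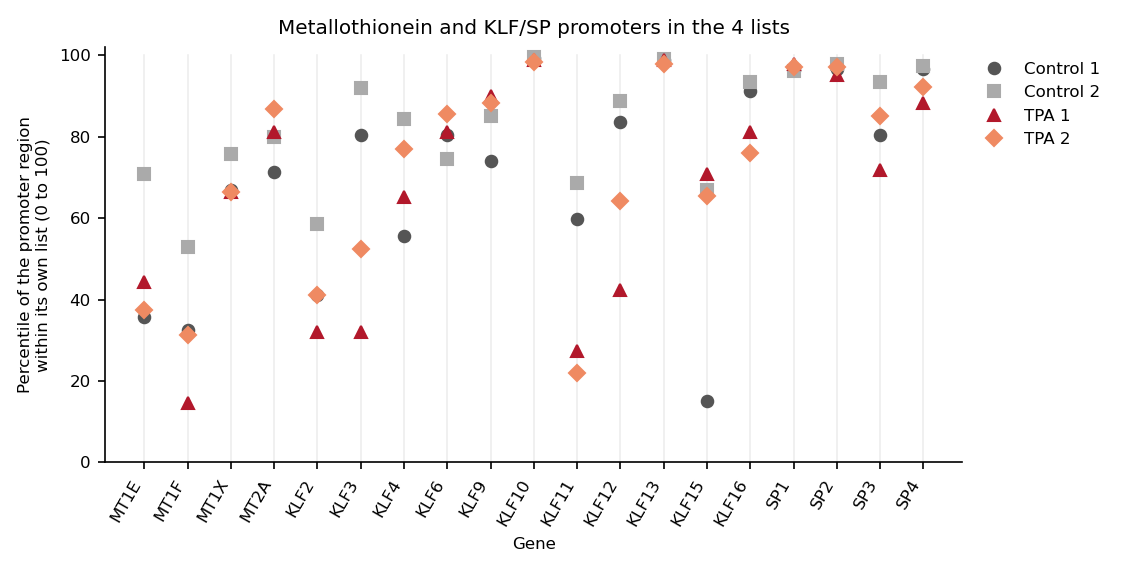
Percentile of the promoter region within its own list (vertical axis, 0 to 100) for the 4 metallothionein and 15 KLF and SP genes with a shared promoter region, 1 symbol per library. KLF3, KLF11 and KLF12 have both TPA symbols well below both controls (KLF3 at 32.0 and 52.5 against 80.4 and 91.9), and MT2A has both above.

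CTCF and the cohesin genes, which shape chromatin loops, had shared promoter regions at all 14 members, with 2 placed below and 0 above both controls. CTCF itself was the member called lower, with 96.3 and 96.2 in the control against 80.4 and 87.2 with TPA (log2 difference -0.61 ± 0.16 SE, adjusted p = 0.0343 in limma), and it was not called after levelling over GC content (adjusted p = 0.105). Immediate early genes, the first to respond to stimuli, had 17 of 20, with 2 placed above and 5 below. The call was at the promoter that IER3 shares with FLOT1, at 81.3 and 90.9 in the control against 65.3 and 61.8 with TPA (adjusted p = 0.0248 in limma, 0.0992 after levelling). EGR1 stood at 99.7 in all 4 lists, and FOS at 73.9 and 72.3 in the control against 68.6 and 87.2 with TPA. The list as a whole had a median re-ranked difference of -2.33 points.

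Hypoxia-inducible genes had shared promoters at 13 of 15, with 2 placed above and 4 below. NDRG1, a stress-response gene, was called higher, with 38.5 and 67.0 in the control against 92.0 and 94.7 with TPA (log2 difference 0.92 ± 0.15 SE, adjusted p = 0.00495 in limma). EGLN1, the oxygen-sensing prolyl hydroxylase, was called lower, with 97.0 and 97.6 in the control against 76.4 and 89.0 with TPA (adjusted p = 0.0176 in limma). Both calls held after levelling over GC content, and they point in opposite directions within 1 list. Targets and partners of YAP and TEAD, which read cell shape and density, had 11 of 14, with 2 above and 4 below. AXL, a receptor tyrosine kinase, had 41.2 and 68.6 in the control against 1.69 and 5.04 with TPA, and TEAD4 had 81.3 and 81.4 in the control against 36.4 and 39.2 with TPA. Both were called lower (adjusted p = 0.00570 and 0.00681 in limma), also after levelling, while CCN2, the classic target, had 51.3 and 69.4 in the control against 76.4 and 79.3 with TPA and was not called.

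Heat shock chaperones had all 15 promoters shared, with 2 above, 1 below and 1 called. The called member was HSP90AB1, the constitutive cytosolic HSP90, at 78.3 and 84.7 in the control against 54.4 and 62.99 with TPA (adjusted p = 0.0379 in limma, 0.0676 after levelling). The p53 targets had 17 of 20 shared, with 2 above and 2 below, NRF2 antioxidant genes 10 of 15, with 1 above and 2 below, and glucocorticoid receptor targets 9 of 12, with 3 above and 0 below. Genes of the hemidesmosome list, which anchor basal epithelium, had 8 of 9, with 3 above and 0 below. None of these 4 lists had a call. ITGA6, the α6 integrin of hemidesmosomes, had 51.3 and 76.3 in the control against 84.4 and 91.2 with TPA (adjusted p = 0.0883 in limma). Each list has few genes, and its counts are a description beside the 9.38% placed above and 21.97% placed below of all coding promoters. Some list regions were also stretched by wide calls. At FOSB, DDB2 and PGD, for example, the calls of TPA replicate 2 measured 29930 to 36210 bp, against 1780 to 9600 bp in the other lists. The score of such a region can come from another promoter within it.

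**Figure D5:**
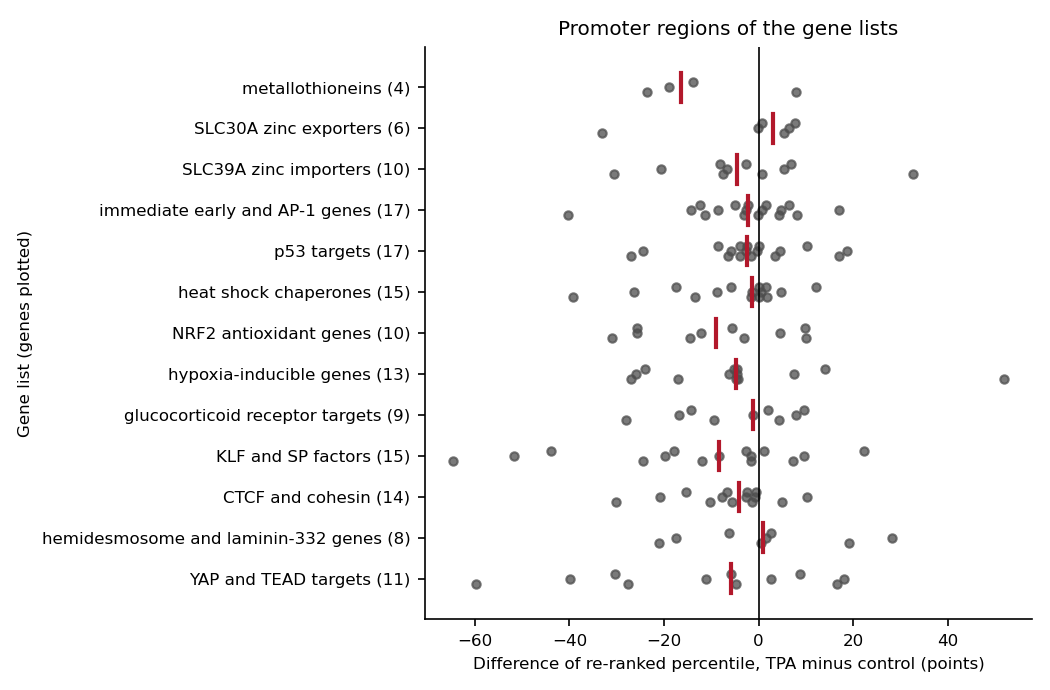
Difference of the re-ranked percentile at the promoter, TPA minus control in points (horizontal axis), for each gene with a shared promoter region (dots) in 13 gene lists (rows), with the number of genes in brackets and the median as a red line. Medians run from -16.5 for metallothioneins to 3.06 for SLC30A exporters, beside -4.24 over all coding promoters.

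Regions were next split by short sequence motifs, searched on both strands of the merged region. AP-1 sites (TGANTCA) were present in 69.0% of shared regions, whose median re-ranked difference was 2.62 points, against -2.84 without. Within the 4 classes of GC content regions with the site lay 2.75, 3.44, 2.88 and 5.18 points above those without. GC boxes (GGGCGG) went the other way: the median was -1.71 with the box, present in 62.5%, and 6.15 without, and within the classes of GC content the difference between regions with and without the box ran from -5.90 to -2.59 points. These contrasts kept their sign when only the 500 bp around the middle of the calls were searched, with differences within the classes of 2.23 to 8.93 points for AP-1 and -6.45 to -5.59 points for the GC box. The difference in GC content and width between regions with and without a motif accompanies all these medians.

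Sites of zinc-dependent factors were read in the same way. Regions with the CTCF core letters (AGNGGGCNC), 37.2% of all, had a median of -1.69 points against 2.36 without, and within classes of GC content the difference ran from -2.78 to -0.69. Metal response element letters (TGCACNC or TGCGCNC) were common, in 82.3% of regions, with 0.01 points against 4.76, and differences of -2.73 to -0.39 within the classes. Paired CATG letters of p53 and p63 sites, 6 bases apart, occurred in 10.9%, with 1.799 points against 0.55, and within the classes the sign was not the same. The letters of TEAD (GGAATG), the CCAAT box, CRE (TGACGTCA) and NRF1 (GCGCANGCG) gave medians of 0.80, 0.72, -0.02 and -3.06 points with, and 0.32, 0.31, 0.72 and 1.45 without the letters. Within classes of GC content the sign was the same in all 4 classes for TEAD, and differed between classes for the other motifs. For CRE and NRF1 it also differed by place. Promoters stood at -1.40 with and -3.93 without CRE, and at -3.11 with and -3.90 without NRF1. Distal regions stood at 3.48 with and 4.41 without CRE, and at -2.25 with and 4.66 without NRF1. In the 500 bp around the middle of the calls, 1 sign held in all 4 classes for TEAD, CCAAT and CRE, with regions holding the letters higher, and the CRE medians were 1.87 with and 0.68 without.

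Width is a readout of the caller apart from the score. The median width of the shared regions was 1260 and 2220 bp in the control against 1400 and 1420 bp with TPA, so that both TPA values lay between the controls (two-sided exact permutation test, p = 1). The open sequence within shared regions was 34.2 and 59.7 Mb in the control and 40.4 and 55.3 Mb with TPA (two-sided exact permutation test, p = 1). In limma on the log2 width 8 regions were called wider with TPA (0.0354%) and 0 narrower (0%, 163 at an unadjusted p of 0.05). All 8 had an adjusted p of 0.0499 in limma, just under the threshold. They lay in or over SNX8, MRPS28, EIF4B, B3GLCT, ACOT9, PFKFB3, PARP2 and the DDT, DDTL and GSTT2 genes. At EIF4B, a translation initiation factor, the calls measured 1590 and 2310 bp in the control against 30920 and 28570 bp with TPA, and at PARP2, a DNA damage sensor, 1890 and 2360 bp against 25740 and 25550 bp. Each of the 8 had TPA calls above 20 kb that spanned several genes or whole introns, while their percentiles overlapped between the conditions in a ranking at 5, lay below both controls at 2 and above at 1. TPA replicate 2 held 744 shared regions with over 10 kb of calls, against 31 to 182 in the other lists, and with widths quantile normalized 0 regions were called.

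Calls absent from 1 condition complete the account. Of the 47700 merged regions, 1030 were called in both TPA and neither control list, and 354 in both control and neither TPA list. The former were distal and GC-poor, with 4.85% over promoters and 45.4% ± 6.91 GC (SD across regions), and the latter had 32.8% over promoters and 55.0% ± 8.31 GC. With lists cut to an equal number of regions the counts were 1210 and 1264, and the promoter shares 8.51% and 43.6%. Gained and lost calls thus differed from each other by place and GC content in the same direction as shared regions placed higher and lower. With the full lists both sets had a lower promoter share than the shared regions (38.8%). The share over all merged regions is not given here.

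At the named regions the ZnCl2 libraries, which share the controls with this comparison, give values side by side. Of all 22568 shared regions 16062 were called in both ZnCl2 lists. All 10 regions with the largest drop under TPA were, with percentiles of 65.3 to 91.2 in replicate 1 and 11.6 to 80.7 in replicate 2, and 3 of the 10 with the largest gain. ZnCl2 replicate 2 was the shortest list of the series. ITGB5 stood at 91.2 and 68.6 with ZnCl2, INSR at 71.3 and 68.6, and RAB43 at 92.4 and 92.6, beside TPA values of 51.1 and lower in all of them. Against the shared controls, both ZnCl2 values lay below both control values at 4 of the 10 regions with the largest drop and above at 0. Of the 8 promoters with the largest drop, 5 lay below and 0 above. At the 3 regions with the largest gain that were called in both ZnCl2 lists the counts were 0 in both directions. All these regions were chosen by their distance from the same controls, and the counts over all shared regions are not given beside them. They therefore describe the named regions alone. The difference between the treatments was not tested here.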

How the data were processed

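ATAC-seq libraries of MCF10A cells were made by the OMNI-ATAC protocol. The authors aligned reads to hg38 with HISAT2 and called open regions in each library with HMMRATAC. The deposited lists hold the interval of each open region and a whole-number score, whose kind and whose depth are not given in the sources used here. Blacklisted regions were not removed.

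Regions of the 4 lists on chromosomes 1 to 22 and X that overlapped or touched were merged. The highest score of a file in a merged region was turned into a percentile of its list, with ties at their middle. Percentiles as normal scores, log2 scores after quantile normalization and log2 widths were fitted over all 22568 shared regions with limma 3.58.1 in R 4.3.3, and p-values were adjusted by Benjamini-Hochberg. For values per library, the conditions were set against each other in an exact permutation test, two-sided. Promoters were the 1000 bp before the outermost starts of GENCODE 44 genes that RefSeq also lists (40050 of 62062). GC levelling subtracted each library's median in 100 bins of GC content. On simulated data, 200 regions were planted at shifts of 1, 2 and 4 units of the fitted scale, normal score or log2 score. The normal-score fit recovered 0%, 0% and 64.5% of them and the log2 score 0%, 81% and 98.5%. The simulated noise took each region's own residual spread, estimated from the 4 libraries, so these shares do not give the sensitivity of the real fits. In the data the log2 score fit did call differences smaller than 1, such as -0.58 at HSP90AB1.

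Named were the 10 highest and 10 lowest regions by difference of mean percentile among those that did not overlap in both rankings and held no repeated piece, the 8 highest and 8 lowest coding promoters by the same rule, the 6 genes at either end among those with at least 5 regions, and members of the gene lists. Members and lists were chosen with earlier results of these data known. Alternatives were other rankings, equal list lengths, single calls, the replicate block, all 6 libraries and leaving out each library. Python 3.11.15, pandas 2.3.3, SciPy 1.17.1 and pysam 0.24.0 were used.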

Additional observations from a re-analysis of the deposited data

How the results depend on the processing

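The promoter-distal and GC distances kept their direction under every alternative run. Without control replicate 2, the normal-score fit called 3248 regions higher and 150 lower, and without the other libraries 0 or 1 higher and 0 to 3 lower, so that library decides the count (0 to 3248 higher and 0 to 150 lower). Higher and lower calls were 1 and 0 after re-ranking, 3 and 10 with lower-ranked regions left out, 345 and 840 with the log2 score, and, in alternatives chosen after seeing the data, 327 and 535 after GC levelling and 307 and 691 with all 6 libraries. Wider calls were 0 with equal list lengths, 0 with widths quantile normalized and 0 to 499 on leaving out a library (499 without TPA replicate 1, 24 without TPA replicate 2), and narrower ones 0. The difference in median width ran from -810 to 150 bp, positive without control replicate 2 (150), and that in open sequence from -11.8 to 13.7 Mb, negative without control replicate 1 (-11.8) and without TPA replicate 2 (-6.48). Regions not overlapping numbered 2599 higher and 1536 lower of 11284 with lower-ranked regions left out, 6003 and 5480 after re-ranking, and 5171 and 4022 of 18162 with equal list lengths. Regions lost numbered 1264 with equal list lengths. Leaving out a library gave 1092 to 10399 gained (10399 without control replicate 2) and 423 to 6431 lost (6431 without control replicate 1).

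With the replicate number as a block, the normal-score fit called 1 higher and 1 lower, the log2 score 855 and 1416, and the width 157 wider and 2 narrower. Deviations of same-numbered libraries correlated at 0.166 in percentile, 0.126 in log2 score and 0.023 in log2 width. With only 2 pairs and no label of a shared batch, whether the numbers pair the libraries is not settled. Depth is unknown and limits what can be said of weak regions.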

Other observations

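Chromosomes differed little in the median re-ranked difference, which ran from -2.39 points on chromosome 19, the chromosome with the highest median GC content of its shared regions (56.5%), to 2.74 on chromosome 8. Both TPA lists placed 19.8% of the chromosome 19 regions below and 12.98% above both controls, and 9.43% and 26.1% of those on chromosome 8. On chromosome X the shares were 9.54% and 8.62% of 325 regions.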
